A study of Mus musculus with 8 samples.

Results

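Clusters 2 and 3 are among the groups of postmitotic nuclei in the deposited clustering that carry deep-layer neuron genes. They were compared within the 4 wildtype samples of the study. Their members were taken by the deposited cluster number. In wildtype, cluster 2 held 5725 nuclei and cluster 3 held 6119 nuclei, together 11844 of 33781 wildtype nuclei and of 67319 nuclei in all. The working names of the clusters were subcerebral-like for cluster 2 and corticothalamic-like for cluster 3, and the marker genes bore out the second name more than the first, as described below. The clusters are therefore called by number.

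Single nuclei came from the dorsal telencephalon, the embryonic tissue that becomes the cerebral cortex, of mouse embryos at E15.5, a day of embryonic development when cortical neurons are still being born. The 4 wildtype samples and the 4 Pantr2 knockout samples (a mouse strain lacking a long noncoding RNA gene) were all labelled C57BL/6J, with no treatment. No transgene, Cre driver or cell sort is named in the labels. The labels do not say that each sample is a separate embryo, so p-values measure the spread between these samples only. The wildtype and knockout samples are numbered as replicates 1 to 4 in each genotype.

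Deep-layer projection neurons send their axons out of the cortex. Subcerebral neurons of layer 5 project to the brainstem and spinal cord and are specified by the transcription factors Fezf2 and Bcl11b (also called Ctip2). Corticothalamic neurons of layer 6 project to the thalamus and depend on Tbr1 and Sox5, while callosal neurons of the upper layers project to the other hemisphere. These programmes repress each other in part, and young neurons can carry markers of more than 1 of them.

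UMIs, the counted tagged transcripts, were summed over the nuclei of a cluster within a sample. Each wildtype sample thus gave 2 libraries, of 3905948 to 5701596 UMIs after genes outside the count table's fit were left out, and each comparison was paired by sample. Cluster 2 held 1668, 1281, 1427 and 1349 nuclei in wildtype replicates 1 to 4, and cluster 3 held 1237, 1501, 1727 and 1654. Of 11831 distinct barcodes in these clusters, 13 occurred in 2 or more wildtype libraries. Replicate 1 stood apart in its deposited doublet score, with a median of 0.0699 in cluster 2 against 0.160 to 0.175 in replicates 2 to 4. Levels are given as CPM, a library's counts scaled to a common total, scaled with TMM factors, and differences as log2 of cluster 2 over cluster 3, so that a positive value means higher in cluster 2. A gene was called at an adjusted p under 0.05 in edgeR's quasi-likelihood test with the sample as a block, over all genes tested.

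The clusters were drawn by the submitters from the same counts, with wildtype and knockout nuclei together. The calls between them therefore describe the clusters and are no independent test, and nothing is read from the number of calls. In wildtype 11832 genes were tested. Of these, 1566 (13.2%) were called higher in cluster 2 and 1834 (15.5003%) higher in cluster 3. A called difference of at least 2-fold was present for 174 genes (1.47%) toward cluster 2 and 512 genes (4.33%) toward cluster 3. For 2402 genes (20.3%) the difference was called and the 4 libraries of a cluster all lay above the 4 of the other. Without replicate 1, 2946 genes in all were called, in place of 3400.

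The corticothalamic genes separated the clusters most evenly. All 10 tested members of that list were called higher in cluster 3, with a median log2 difference of -1.63 against 0.01 over all genes tested. Hs3st4, a heparan sulfate sulfotransferase gene used as a layer 6 marker, had 514, 686, 671 and 558 CPM in cluster 2 of replicates 1 to 4 and 3629, 4065, 4233 and 4206 CPM in cluster 3. The groups lay far apart in every sample, with a log2 difference of -2.74 ± 0.05 (SE). Tle4, a transcriptional corepressor of corticothalamic neurons, had 580 ± 96.7 CPM in cluster 2 and 3171 ± 236 CPM in cluster 3 (SD, n = 4), a difference of -2.46. Grik3, a kainate receptor subunit, Zfpm2, a GATA cofactor, and Foxp2, a forkhead factor of layer 6, differed by -1.84, -1.83 and -1.59.

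Tbr1 and Sox5 differed less. Tbr1, the T-box factor of layer 6, had 50.6, 57.0, 60.2 and 52.6 CPM in cluster 2 and 76.9, 89.7, 90.0 and 93.8 CPM in cluster 3, a log2 difference of -0.67. The 2 sets of values did not overlap. Sox5 had 4668 ± 488 CPM in cluster 2 and 5018 ± 206 CPM in cluster 3, with overlapping libraries and a difference of only -0.11 that was lost without replicates 1, 2 or 4. Syt6 (-1.67), a synaptotagmin, and Ntsr1 (-1.36), the neurotensin receptor gene marking mature layer 6 corticothalamic neurons, lay between these extremes. Wnt7b, a secreted WNT ligand, completed the list at -1.04.

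The subcerebral list was split. Of its 15 tested members, 5 were called higher in cluster 2, 4 higher in cluster 3 and 6 were not called, with a median log2 difference of 0.07. Fezf2, the zinc finger factor that specifies subcerebral neurons, had 119, 131, 175 and 122 CPM in cluster 2 and 90.4, 90.9, 98.6 and 79.3 CPM in cluster 3. It was higher in cluster 2 in all 4 samples, by 0.60 ± 0.06 (SE). Bcl11b had 769, 1096, 1081 and 904 CPM in cluster 2 and 878, 939, 933 and 864 CPM in cluster 3. These values overlapped, and the log2 difference was 0.08 ± 0.06 (edgeR adjusted p = 0.330), though it was called without replicate 1.

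Ldb2, a LIM domain binding cofactor, differed with little spread. It had 1405, 1571, 1553 and 1525 CPM in cluster 2 and 524, 517, 594 and 512 CPM in cluster 3, which is 2.82-fold higher in cluster 2. Diaph3, a formin of the actin cytoskeleton, differed by 2.57 with 73.3 ± 21.5 CPM in cluster 2 and 12.5 ± 2.49 CPM in cluster 3. Bhlhe22, a basic helix-loop-helix repressor, and S100a10, a calcium-binding protein gene of layer 5, differed by 0.78 and 0.33. The call for S100a10 was lost without replicate 4. Toward cluster 3 were Cntn6, a contactin, at -1.32, Itm2a at -0.51, Cdh13, a cadherin without a transmembrane domain, at -0.39, and Crym, a thyroid hormone binding protein gene, at -0.38. The calls for Itm2a and Crym were each lost without replicate 1 or 4, and that for Itm2a also without replicate 3. Etv1, Pcp4, Ntng1, Crim1 and Igfbp4 were not called, with differences from -0.39 to 0.33, although Igfbp4 was called without replicate 2.

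**Figure D1:**
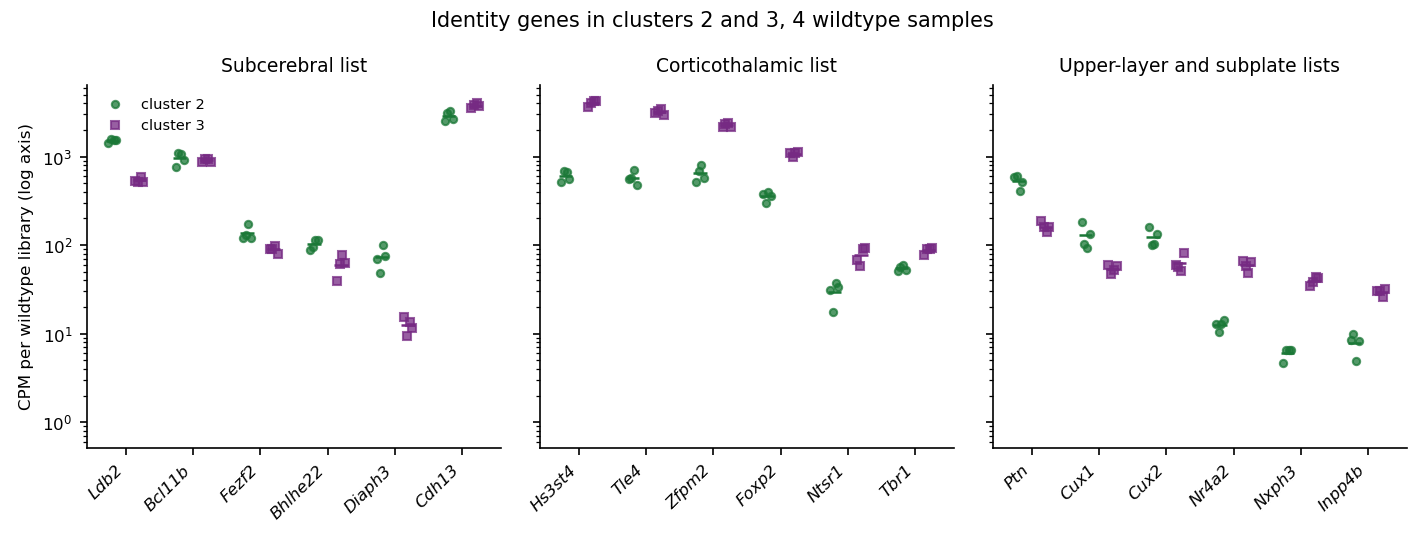
Levels (CPM, log axis) of genes of the identity lists in the 4 wildtype libraries of cluster 2 (green circles) and cluster 3 (purple squares), with horizontal lines at the means. The corticothalamic genes shown sit lower in cluster 2 in every library, Bcl11b overlaps between the clusters, and Ptn, Cux1 and Cux2 sit higher in cluster 2.

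Genes of callosal and upper-layer neurons were the second list to separate the clusters, toward cluster 2. Of 10 tested members, 9 were called higher in cluster 2 and 1, the plexin gene Plxnd1, higher in cluster 3 (-1.02), with a list median of 0.94. Ptn, which encodes the growth factor pleiotrophin, had 585, 596, 406 and 521 CPM in cluster 2 and 187, 159, 139 and 162 CPM in cluster 3. Every cluster 2 library lay above every cluster 3 library, and the log2 difference was 1.70 ± 0.05 (SE). The cut-like homeobox gene Cux1 had 185, 104, 93.6 and 134 CPM in cluster 2 and 60.3, 46.9, 51.9 and 58.0 CPM in cluster 3, also without overlap, a difference of 1.22. The related Cux2 differed by 0.98. With 1400 UMIs drawn from each nucleus, Ptn and Cux1 were detected in 83.1% and 45.5% of nuclei in cluster 4, highest in apical progenitor genes. The mean shares were 40.1% and 11.7% in cluster 2, and 18.1% and 6.30% in cluster 3. Neither gene was thus particular to neurons here. Lmo4, Lhx2 and Rorb were nearest to no difference, at 0.40, 0.37 and 0.36, and their libraries overlapped.

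The summed corticothalamic list gave 7215 ± 798 CPM in cluster 2 and 16592 ± 716 CPM in cluster 3 (SD, n = 4). For the subcerebral list the sums were 5946 ± 628 and 5654 ± 313 CPM, and the libraries overlapped. Cluster 2 thus held the lower corticothalamic sum, with subcerebral sums of similar range in both. Large parts of the subcerebral sum differed in opposite directions. Cdh13 had 2885 ± 377 CPM in cluster 2 and 3756 ± 215 CPM in cluster 3. Ldb2 had 1513 ± 74.8 and 537 ± 38.5 CPM.

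Subplate genes, which mark the earliest-born neurons beneath the cortical plate, were higher in cluster 3 than in cluster 2. Their sum was 167 to 198 CPM in cluster 2 and 281 to 294 CPM in cluster 3, but highest in cluster 4, at 369 to 394 CPM. Of 6 tested members, 5 were called toward cluster 3 and none toward cluster 2. Nxph3, which encodes a neurexophilin, had 4.71, 6.59, 6.53 and 6.64 CPM in cluster 2 and 34.7, 38.0, 43.9 and 42.5 CPM in cluster 3, a log2 difference of -2.70. Nr4a2, an orphan nuclear receptor gene, differed by -2.23 with 12.5 ± 1.58 CPM against 59.0 ± 8.10 CPM. Nxph4, Inpp4b and Lpar1 differed by -1.93, -1.91 and -1.29. Lpar1 was detected in 36.4% of nuclei in cluster 4 and 1.83% in cluster 3 on average. Tmem178 was not called, at 0.12 (edgeR adjusted p = 0.0787). It had 148 ± 13.1 CPM in cluster 2 and 136 ± 7.09 CPM in cluster 3, and so made up most of the subplate sum in cluster 2.

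Across all 7 deposited clusters of wildtype nuclei, Kcnq5 reached 2577 ± 342 CPM in cluster 2 and at most 430 ± 138 CPM elsewhere, in cluster 6. Tle4 had 3162 ± 203 CPM in cluster 3, and its next highest mean was that of cluster 2, at 578 ± 88.7 CPM. Cux1 was highest in cluster 1 at 667 ± 62.8 CPM, followed by clusters 4 and 5 at 452 ± 12.9 and 389 ± 10.7 CPM. Bcl11b was highest in clusters 2 and 3, at 960 ± 153 and 901 ± 30.7 CPM, which did not differ beyond their spread. Its next levels were 629 ± 44.1 CPM in cluster 7 and 626 ± 33.2 CPM in cluster 6, also within their spread of each other. Cdh9 had 70.9 ± 9.32 CPM in cluster 3, with 50.9 ± 9.84 CPM in cluster 6 and 4.48 ± 1.22 CPM in cluster 2. In the deposited coarser grouping, cluster 2 shared a group with cluster 1 and cluster 3 stood alone.

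**Figure D2:**
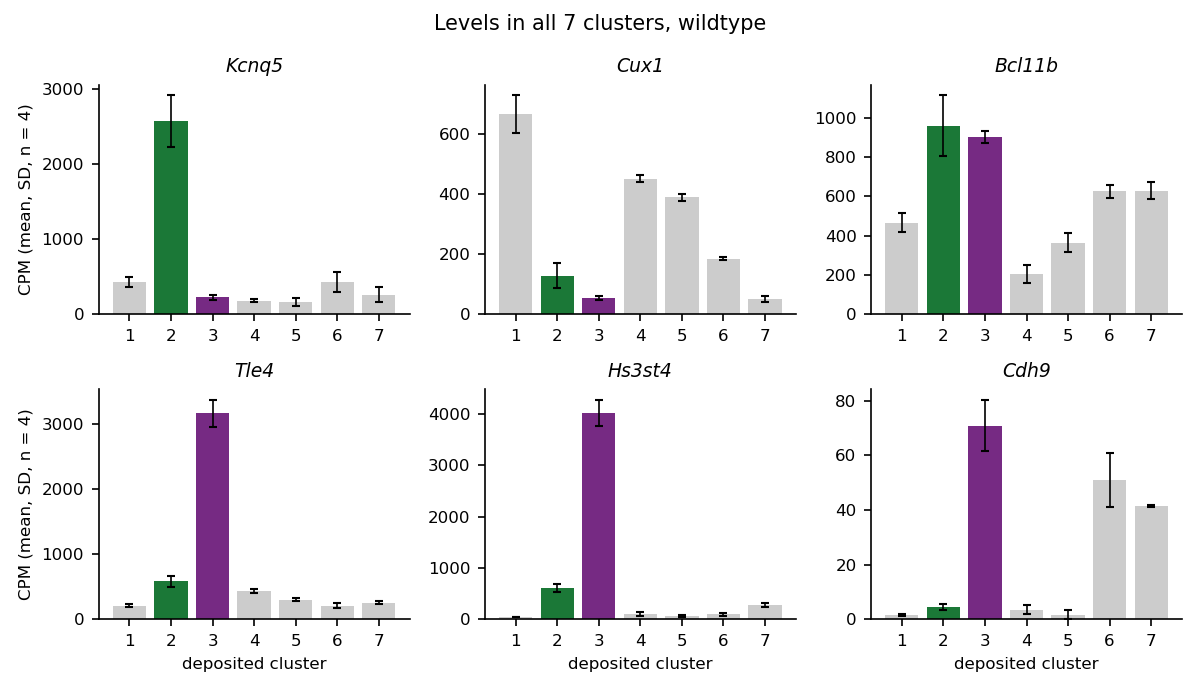
Mean level (CPM, bars starting at 0, error bars SD, n = 4 wildtype samples) of 6 genes in the 7 deposited clusters, with cluster 2 in green, cluster 3 in purple and the others in grey. Kcnq5 stands out in cluster 2, Tle4 and Hs3st4 in cluster 3, Bcl11b is high in both and Cux1 is highest in cluster 1.

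The sums of the marker lists of other cell types given here overlapped in range between the clusters, though single members were called. The summed apical progenitor list, of radial glia, had 693 to 896 CPM in cluster 2 and 530 to 776 CPM in cluster 3, against 2397 to 2914 CPM in cluster 4. Of its 9 tested members, 1 was called higher in cluster 2. Within this list Slc1a3 had 159 ± 32.4 CPM in cluster 2, 51.0 ± 9.34 CPM in cluster 3 and 843 ± 55.4 CPM in cluster 4 (SD). Intermediate progenitor genes summed to 106 to 149 CPM in cluster 2 and 111 to 147 CPM in cluster 3, with no member called. Interneuron genes summed to 57.5 to 87.0 and 71.2 to 113 CPM, with 1 of 7 tested members called, toward cluster 3. Their highest mean sum was in cluster 4, at 81.9 to 107 CPM, so cluster 3 was not low by comparison. Oligodendrocyte, microglia, endothelial and pericyte lists each stayed under 12 CPM in both clusters, and no marker list had a member at 0 in both. Erythroid genes summed to 299 to 625 CPM in cluster 2 and 273 to 570 CPM in cluster 3, with none of 5 called. Genes of Cajal-Retzius cells summed to 26.5 to 33.8 and 30.0 to 38.8 CPM, with the 1 tested not called, and striatal genes to 838 to 1109 and 733 to 987 CPM, with 1 of 5 called toward cluster 2 and 2 toward cluster 3. The part of these sums in the differences was not tested.

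The nuclei of cluster 3 were slightly richer in RNA. The median number of UMIs per nucleus was 2907 ± 109 in cluster 2 and 3080 ± 117 in cluster 3 (SD, n = 4), and it was higher in cluster 3 in 4 of 4 samples. Genes detected per nucleus had medians of 1523 ± 44.3 and 1598 ± 47.6, and at 1400 UMIs drawn from each nucleus these became 886 ± 6.14 and 893 ± 4.43. Mitochondrial genes took 1.77% ± 0.298 of UMIs in cluster 2 and 2.06% ± 0.295 in cluster 3, also higher in cluster 3 in 4 of 4 samples. The share of nuclei whose deposited cell-cycle angle lay between 0.5 and 1.5 times pi ran from 7.85% to 14.8% in cluster 2 and was 15.1% ± 2.14 in cluster 3, a mean difference of -3.13 percentage points, against at least 76.2% in each wildtype sample of cluster 4. In a two-sided exact sign-flip permutation test, 2 of the 16 sign flips were as extreme for each of these properties, the smallest p that 4 pairs allow (adjusted p = 0.175 over 7 properties). The share of a sample's nuclei was 17.0% ± 2.52 in cluster 2 and 18.1% ± 2.53 in cluster 3, with exact permutation p = 0.625 (higher in cluster 3 in 3 of 4 samples). Whether RNA content had a part in the gene differences was not tested.

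The 12 named genes with the largest differences toward cluster 2 ranged from 2.57 to 3.86 on the log2 scale. Kcnq5, a voltage-gated potassium channel of the M-current family, had 2789, 2557, 2140 and 2834 CPM in cluster 2 and 231, 202, 207 and 274 CPM in cluster 3. The clusters were about 11.3-fold apart, a log2 difference of 3.49 ± 0.05 (SE). Itpr1, the inositol trisphosphate receptor of the endoplasmic reticulum, had 688 ± 59.0 CPM in cluster 2 and 63.5 ± 10.4 CPM in cluster 3, a difference of 3.44. Trmt9b, a tRNA methyltransferase-like gene, had the largest difference of the named genes, 3.86, at 40.1 to 49.4 CPM in cluster 2 and 2.64 to 3.35 CPM in cluster 3. Pde4b, a cyclic AMP phosphodiesterase, differed by 2.90 with 852 to 1036 CPM against 115 to 142 CPM.

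Kif26b, a kinesin family gene, varied between the samples of cluster 2. Its libraries had 194, 86.1, 67.9 and 153 CPM in cluster 2 and 29.9, 6.90, 9.81 and 16.2 CPM in cluster 3. Both clusters were highest in replicate 1 and next highest in replicate 4. The paired difference was 3.02, with an SE of 0.10 that comes from edgeR's test and not from the spread of the paired differences. Boc, a co-receptor for Sonic hedgehog, differed by 3.02, Oma1, a mitochondrial protease gene, by 3.05, and Arhgap28, a GTPase-activating protein gene, by 2.97. Tcerg1l (3.15), Peli2 (2.89), Nrip1 (2.60), a nuclear receptor corepressor, and Diaph3 (2.57) completed the 12. At 1400 UMIs per nucleus, Diaph3, Boc and Peli2 were detected in more nuclei of cluster 4, highest in apical progenitor genes, than of cluster 2. The mean shares were 47.6%, 34.8% and 33.4% in cluster 4 and 8.83%, 9.46% and 13.4% in cluster 2. The others of the 12 had lower mean shares in cluster 4. Tcerg1l varied in cluster 2, with 7.23 CPM in replicate 3 and 24.7 to 34.1 CPM in the other libraries. A further 3 predicted or unnamed genes had differences as large and are only counted.

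Toward cluster 3 the largest difference was that of Abca8a, a lipid transporter gene. It had 0.785, 0.760, 0.700 and 0.229 CPM in cluster 2 and 41.2, 51.4, 51.0 and 50.8 CPM in cluster 3. The cluster 2 libraries held a few UMIs each, so that its log2 difference of -6.22 depends on the prior count of the fit. Abca8a shares 218 aligned bases at 96.3% identity with its neighbour Abca8b in GENCODE transcripts, and Hs3st3b1 shares 774 bases at 97.7% with Hs3st3a1, so reads of each pair may be split between copies. Syt6 likewise shares 508 bases at 99.4% with Atg4a, and Cdh10 and Igfbp4 share 213 bases at 95.8% with Ssbp2 and 144 bases at 95.1% with Ctdspl2.

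Etl4 had 17.3, 16.5, 14.9 and 18.8 CPM in cluster 2 and 402, 301, 266 and 307 CPM in cluster 3, a difference of -4.25. Col19a1, a collagen gene, Brinp3 and Hs3st3b1, a heparan sulfate sulfotransferase gene, differed by -4.19, -4.18 and -4.11. Cdh9, a classical type II cadherin, had 4.49 ± 1.23 CPM in cluster 2 and 71.0 ± 8.63 CPM in cluster 3, a difference of -3.96. Tll2, a tolloid-like protease gene, Thsd7b, Ramp3, a receptor activity modifier, Olfm3, Sulf1, a heparan sulfate 6-O-endosulfatase gene, and Vwc2 differed by -3.94 to -3.61. Sulf1 had 30.0 CPM in cluster 3 of replicate 3 and 82.2 to 88.3 CPM in that cluster elsewhere. At 1400 UMIs per nucleus, Etl4 was detected in 75.8% of nuclei in cluster 4 and 17.7% in cluster 3 on average. Thsd7b had 10.2% and 9.19%, within the spread of the samples. The others of the 12 toward cluster 3 had lower mean shares in cluster 4 than in cluster 3. Another 1 predicted gene had a difference as large and is only counted.

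**Figure D3:**
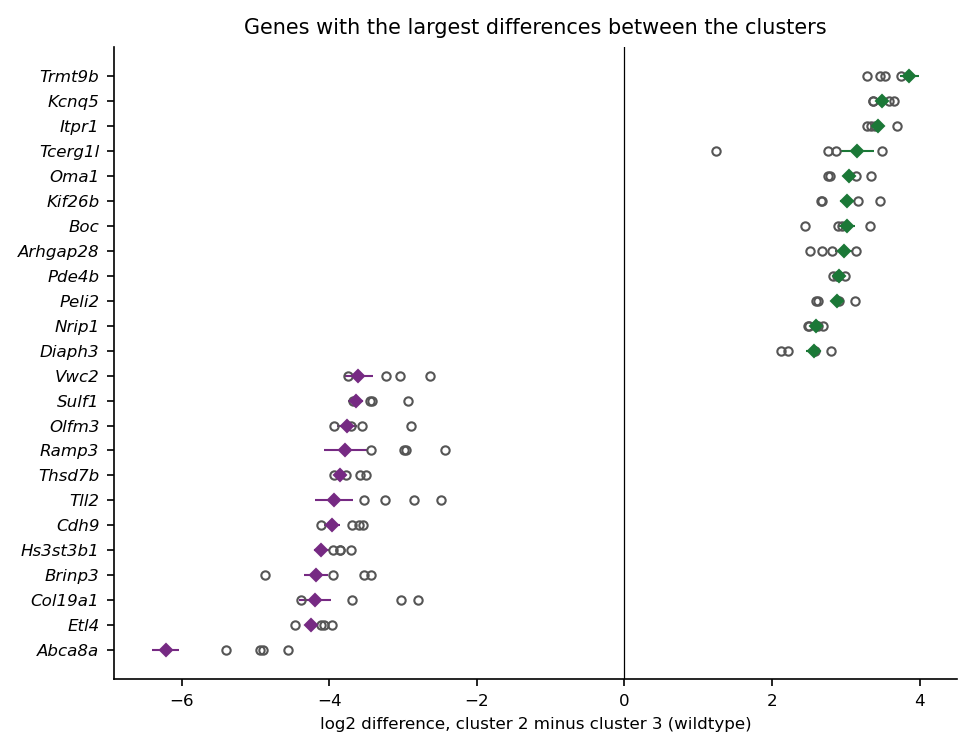
Log2 difference between cluster 2 and cluster 3 in wildtype for the 12 named genes with the largest differences in each direction (diamonds, with SE, from the edgeR fit), and the difference within each of the 4 samples (open circles, from CPM with 1 added). All samples lie on the side of the fitted value, and the circles of low genes lie nearer to 0 because of the added 1.

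Large genes stood out on both sides. The median genomic span in GENCODE M21 was 110 kb for the 174 genes at least 2-fold higher in cluster 2, 115 kb for the 512 at least 2-fold higher in cluster 3 and 29.6 kb over all genes tested. The share of genes over 100 kb was 52.9%, 56.4% and 18.7% in the same order. Kcnq5 spans 564 kb on chromosome 1 (GRCm38, chr1:21398403-21961942, minus strand), and Hs3st4 spans 416 kb on chromosome 7 (chr7:123982869-124398989, plus strand). The predicted gene Gm27040 lies within the span of Hs3st4 on the opposite strand. Other named genes that overlap a counted gene on the opposite strand include Crim1, Wnt7b, Kcnip4, Chrm3, Brinp3, Cdh8, Kcnn2, Gabrb1, Nell2, Nr3c2 and Rarb. The strand setting of the counting is not given in the sources used here, so reads of such pairs may not have been told apart.

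Promoter windows were looked up for the 62 genes named from the subcerebral, corticothalamic and subplate lists, the largest differences and the difference between genotypes. RefSeq windows (GRCm38.p6) within 1000 bases of the GENCODE start were found for 38. The 250 bases before the start were searched on both strands for AACAAT, a motif bound by SOX factors, since Sox5 belongs to the corticothalamic list and was abundant in both clusters. It was present in 2 of the 38 windows and in 9.65% of 27025 promoters of that length. AGGTGTGA, a T-box motif, was in none of the 38 and in 1.14% of all promoters. TGTTTAC, a forkhead motif, was in 1 (3.09% of all), and CAGATG, an E-box, was in 4 (14.5% of all). A match describes letters only and is no evidence of binding.

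The windows holding the SOX motif belonged to Nrip1, called higher in cluster 2, and Nr4a2, called higher in cluster 3, and are shown as examples from each side. Capitals mark the motif, which lies on the minus strand relative to each gene in both. The Nrip1 window is chr16:76373828-76374077 and the Nr4a2 window is chr2:57124004-57124253, each on the minus strand of the chromosome and ending at the base before the RefSeq start.
Nrip1: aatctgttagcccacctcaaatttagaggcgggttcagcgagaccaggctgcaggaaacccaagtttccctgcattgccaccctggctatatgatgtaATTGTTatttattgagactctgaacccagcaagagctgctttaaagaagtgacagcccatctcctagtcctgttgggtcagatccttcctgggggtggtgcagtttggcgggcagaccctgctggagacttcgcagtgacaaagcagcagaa
Nr4a2: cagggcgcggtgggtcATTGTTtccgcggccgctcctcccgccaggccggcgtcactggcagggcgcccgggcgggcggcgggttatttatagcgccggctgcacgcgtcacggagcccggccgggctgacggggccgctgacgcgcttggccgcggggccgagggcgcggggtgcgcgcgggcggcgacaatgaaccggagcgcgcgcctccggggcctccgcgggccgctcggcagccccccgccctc

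Other transcription factors of cortical neurons were divided. Of 28 tested, 12 were called higher in cluster 2 and 8 higher in cluster 3, with a median of 0.14. Tox, an HMG-box factor, had 1101, 1381, 1222 and 1178 CPM in cluster 2 and 524, 544, 544 and 522 CPM in cluster 3, a difference of 1.19. Foxp1, a forkhead factor, and Tcf4, an E protein, differed by 1.01 and 0.82. On the other side were Lmo3, a LIM-only cofactor (-1.78), St18, a zinc finger factor (-1.56), and Tshz2, a teashirt homologue (-0.61). Nfia, a nuclear factor I gene, was also called higher in cluster 3, at -0.60, and Mef2c was not called, at 0.16.

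Guidance receptors read the cues that steer axons. Of 30 tested, 13 were called higher in cluster 2 and 10 higher in cluster 3, with a median of 0.05. Robo1, a receptor for Slit ligands, had 4645, 4743, 4641 and 4524 CPM in cluster 2 and 1285, 1199, 1104 and 1111 CPM in cluster 3. The values were tight in both clusters and the difference was 1.98 ± 0.04 (SE). Its relative Robo2 differed by 2.41, with 1556 ± 236 against 294 ± 59.7 CPM. Boc (3.02), the semaphorin co-receptors Plxna4 (2.47) and Nrp1 (1.97), and the netrin receptor Dcc (0.76) were also called toward cluster 2.

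Toward cluster 3 were the netrin receptors Unc5b and Unc5c, at -2.06 and -1.25, and the ephrin receptor Epha7, at -1.15. Unc5c had 191, 74.5, 108 and 195 CPM in cluster 2 and 284, 327, 337 and 362 CPM in cluster 3, so that cluster 2 varied more between samples than cluster 3. The neuropilins divided, with Nrp1 toward cluster 2 and Nrp2 toward cluster 3 (-0.88). The netrin receptors Dcc and Unc5c divided in the same way. Another Unc5 gene, Unc5d, was called toward cluster 2 at 0.50, without separation of the libraries.

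Guidance ligands were called in 9 of 26 cases toward cluster 2 and 8 toward cluster 3. Ntng2, a membrane-anchored netrin, had 122, 113, 87.3 and 122 CPM in cluster 2 and 23.1, 17.5, 20.9 and 26.1 CPM in cluster 3, a difference of 2.33. The semaphorin genes Sema3a and Sema7a were higher in cluster 2, by 1.07 and 1.04. Sema6a, Sema3e and Sema5a were higher in cluster 3, with differences of -1.28, -1.04 and -1.01. The Slit genes were divided, with Slit3 toward cluster 2 (0.38) and Slit1 and Slit2 toward cluster 3 (-0.34 and -0.66).

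Cell adhesion genes were called in both directions. Of 43 cadherins, contactins, teneurins and latrophilins tested, 13 were higher in cluster 2 and 21 higher in cluster 3, with a median of -0.16, beside 1566 and 1834 of the 11832 genes tested and their median of 0.01. Neither this nor the splits of the lists that follow were tested against other genes. Cdh8, a type II cadherin, had 458, 339, 367 and 482 CPM in cluster 2 and 62.1, 62.9, 60.1 and 96.6 CPM in cluster 3, a difference of 2.54. Ntm, which encodes neurotrimin, had 2080 ± 125 CPM against 417 ± 32.2 CPM, a difference of 2.32, and Nectin3 differed by 1.27. Cdh9 (-3.96), the contactin-associated gene Cntnap5b (-3.12), Cdh18 (-3.11) and the contactin Cntn5 (-2.47) were higher in cluster 3. The cadherins thus lay at both ends, with Cdh8 and Cdh12 (1.22) toward cluster 2 and Cdh7, Cdh9, Cdh10, Cdh11 and Cdh18 toward cluster 3.

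Of the 45 ion channel genes tested, 10 were called higher in cluster 2 and 26 higher in cluster 3, with a median of -0.26. Apart from Kcnq5, the members called toward cluster 2 by the most were Scn1a, a sodium channel (1.73), Kcnn2, a calcium-activated potassium channel (1.46), and Cacna2d1, a calcium channel subunit (1.33). The related Kcnq3 differed by 0.14. Dpp10, an auxiliary subunit of Kv4 channels, had 38.4, 12.7, 18.0 and 36.8 CPM in cluster 2 and 322, 181, 253 and 253 CPM in cluster 3, a difference of -3.26. Kcnab1, a potassium channel beta subunit, differed by -1.66, Cacnb2, a calcium channel beta subunit, by -1.62, and Kcnip4, a Kv4-interacting protein gene, by -1.44.

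Receptors for glutamate and GABA had the lowest list median outside the corticothalamic and subplate lists, at -0.58. Of 33 tested, 4 were higher in cluster 2 and 23 higher in cluster 3. Grm3, a metabotropic glutamate receptor, had 61.6, 32.2, 39.7 and 51.0 CPM in cluster 2 and 314, 270, 267 and 345 CPM in cluster 3, a difference of -2.69. Gabrb1, a GABA-A receptor subunit, and Grin3a, an NMDA receptor subunit, differed by -2.53 and -2.50. The 4 receptors toward cluster 2 were the GABA-A subunits Gabrg3 (2.05) and Gabra2 (1.39), the AMPA receptor subunit Gria2 (0.56) and the NMDA receptor subunit Grin2a (0.50). The other AMPA subunits, Gria1, Gria3 and Gria4, were called toward cluster 3, at -0.58, -1.27 and -0.40.

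Of 25 synaptic organisers tested, 7 were called toward cluster 2 and 13 toward cluster 3. Tafa2, a gene for a secreted neuronal protein, was higher in cluster 2 by 1.17, with 744 CPM in replicate 1 and 313 to 495 CPM in the others. Nell2, a secreted axon guidance glycoprotein, was higher in cluster 2 by 0.71. Lrrtm4, a postsynaptic adhesion gene, had 847 CPM in cluster 2 and 2959 CPM in cluster 3 on average and differed by -1.81. Il1rapl2 was higher in cluster 3, at -2.16, with 12.1 CPM in cluster 2 of replicate 3 and 63.3 to 77.9 CPM in the others.

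Of 19 tested genes of WNT, TCF and BMP signalling, 9 were higher in cluster 2 and 4 higher in cluster 3. Bmpr1b, a BMP receptor, had 259, 265, 197 and 240 CPM in cluster 2 and 45.2, 56.4, 35.3 and 44.6 CPM in cluster 3, a difference of 2.41. Lef1, a WNT effector, and Rspo3, a WNT potentiator, were higher in cluster 2 by 1.08 and 0.84. Wnt7b and Tcf7l1, a TCF repressor, were higher in cluster 3 (-1.04 and -0.87). Among 12 tested retinoid and steroid genes, 3 were called each way, with the glucocorticoid receptor gene Nr3c1 at -2.15 and the mineralocorticoid receptor gene Nr3c2 at 0.84. The Nr3c2 call was lost without replicate 2 or 3.

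Of 20 maturation genes tested, 3 were called toward cluster 2 and 8 toward cluster 3, with a median of 0.02. Celf4, an RNA-binding protein gene, and Dlg2, a postsynaptic scaffold gene, were higher in cluster 3, with differences of -1.27 and -1.07. Syt4, a synaptotagmin gene, was higher in cluster 2 by 1.95. Cytoskeletal genes of all young neurons, Map2, Map1b and Mapt, were not called, at 0.06, 0.05 and 0.04. Of 10 genes of newborn and migrating neurons tested, Unc5d alone was called. Sox11, Neurog2 and Eomes of that list differed by 0.05, 0.02 and 0.01, none called.

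**Figure D4:**
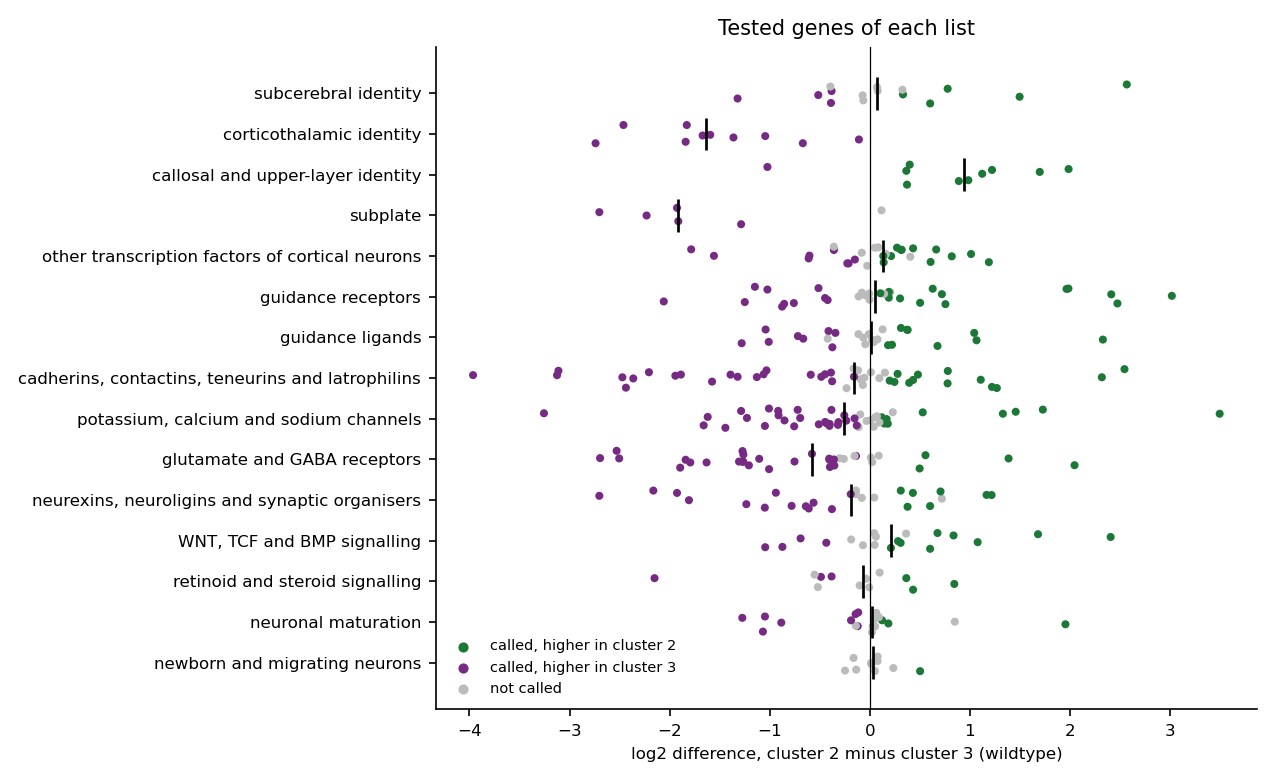
Log2 difference between cluster 2 and cluster 3 in wildtype for each tested gene of 15 lists, coloured by call, with the list median as a black line. The corticothalamic and subplate lists lie left of 0, the upper-layer list right of 0, and the subcerebral list spans both sides.

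The same contrast was set beside that of the Pantr2 knockout samples, whose nuclei were clustered together with the wildtype nuclei. The knockout clusters held 5954 and 5464 nuclei. There, 1355 of 11577 genes (11.7%) were called higher in cluster 2 and 1709 (14.8%) higher in cluster 3. Of the 11456 genes tested in both genotypes, 862 were called toward cluster 2 in both, which is 55.8% of the wildtype calls and 63.9% of the knockout calls. Toward cluster 3 the shared calls numbered 1270, or 71.5% and 74.9%. In all, 53 genes were called in opposite directions, 28 of them higher in cluster 2 in wildtype.

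The difference of the contrast between genotypes was called for 672 of 12178 genes (5.52%). The log2 difference was lower in knockout for 356 of them and higher for 316. A lower contrast was shifted toward cluster 3 and a higher one toward cluster 2, whether the clusters then lay nearer together or farther apart. Of the 10 upper-layer genes, 7 were called with a lower contrast in knockout and none with a higher one. Cux1 had 53.7, 33.5, 27.6 and 50.4 CPM in cluster 2 of knockout replicates 1 to 4 and 66.0, 45.4, 41.6 and 43.0 CPM in cluster 3. These overlapped, unlike in wildtype, and the contrast was -0.25 in knockout against 1.22 in wildtype, a difference of -1.46 ± 0.15 (SE, edgeR adjusted p = 8.51e-07). Ptn (-0.91) and Cux2 (-0.80) also had smaller contrasts in knockout.

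Of the 10 corticothalamic genes, 7 were called with a higher contrast in knockout and none with a lower one. Ntsr1 was among the 3 not called, at -1.36 in wildtype and -1.51 in knockout. Hs3st4 had 1039, 1078, 1168 and 971 CPM in cluster 2 of the knockout and 3225, 3596, 3578 and 3692 CPM in cluster 3, so its contrast was -1.73 in place of -2.74. Syt6 no longer separated the clusters, at 34.3 ± 4.18 and 31.9 ± 5.55 CPM, a difference of 1.79 between the contrasts. Sox5 changed side, from -0.11 in wildtype to 0.29 in knockout. Bcl11b, not called in wildtype, was called toward cluster 2 in knockout (0.49), a difference of 0.43 ± 0.07 (edgeR adjusted p = 0.000436). Fezf2 had contrasts of 0.60 and 0.65, with a difference of 0.06 that was not called.

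Summed levels were scaled within each genotype. In cluster 2 the corticothalamic sum was 7215 ± 798 CPM in wildtype and 10774 ± 870 CPM in knockout (SD, n = 4). Sox5 alone, with 4668 ± 488 and 7061 ± 764 CPM, made up most of this sum in cluster 2 and most of its rise. In cluster 3 the corticothalamic sums were 16592 ± 716 and 16895 ± 930 CPM. The subcerebral sum was 5946 ± 628 CPM in wildtype and 7697 ± 732 CPM in knockout in cluster 2, and 5654 ± 313 and 6343 ± 419 CPM in cluster 3. Cdh13 alone made up most of both rises. It had 2885 ± 377 and 4398 ± 536 CPM in cluster 2, and 3756 ± 215 and 4327 ± 311 CPM in cluster 3. In cluster 2, Bcl11b had 963 ± 156 and 1416 ± 189 CPM, while Ldb2 was not higher in knockout, at 1513 ± 74.8 and 1417 ± 103 CPM. Nuclei of both genotypes were assigned to cluster 2 together, and different nuclei falling in the cluster cannot be told apart from different levels per nucleus.

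The largest differences toward a lower contrast in knockout were in Kcnip4, Kif26b, Unc5c, Cdh10 and Galntl6. Kif26b had 8.44, 12.5, 5.25 and 20.1 CPM in cluster 2 of the knockout and 23.5, 18.1, 11.4 and 11.0 CPM in cluster 3. Its wildtype contrast of 3.02 became -0.41, a difference of -3.42 ± 0.30 (edgeR adjusted p = 9.59e-08). Kcnip4 had 33.8, 35.6, 14.0 and 31.0 CPM in cluster 2 of the knockout, below all 4 wildtype libraries of that cluster (128 to 495 CPM). Its contrast was -1.44 in wildtype and -5.05 in knockout, a difference of -3.60. Unc5c, Cdh10 and Galntl6, a glycosyltransferase-like gene, had differences of -3.34, -2.66 and -2.56. Their contrasts were -1.25, -1.06 and 0.26 in wildtype and -4.59, -3.73 and -2.32 in knockout. Apart from Kif26b, these genes thus separated the clusters more in knockout.

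Toward a higher contrast were Rerg, a Ras-like growth inhibitor gene (2.69), Trpc7, a cation channel (2.52), Pde7b, a cyclic AMP phosphodiesterase (2.15), Tll2 (1.98) and Chrm3, a muscarinic acetylcholine receptor (1.92). Chrm3 had 136, 119, 112 and 128 CPM in cluster 2 of the knockout and 45.1, 20.8, 34.9 and 43.0 CPM in cluster 3, which did not overlap. In wildtype its 4 cluster 2 libraries, from 23.9 to 81.8 CPM, spanned the cluster 3 range of 53.2 to 64.2 CPM. Pde7b was lower in cluster 3 of the knockout than of wildtype, at 26.4 ± 16.5 against 69.9 ± 9.37 CPM. The call for Tll2 was lost without knockout replicate 2. Itpr1, by contrast, kept a contrast of 3.08 in knockout beside 3.44 in wildtype, with no call of the difference.

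**Figure D5:**
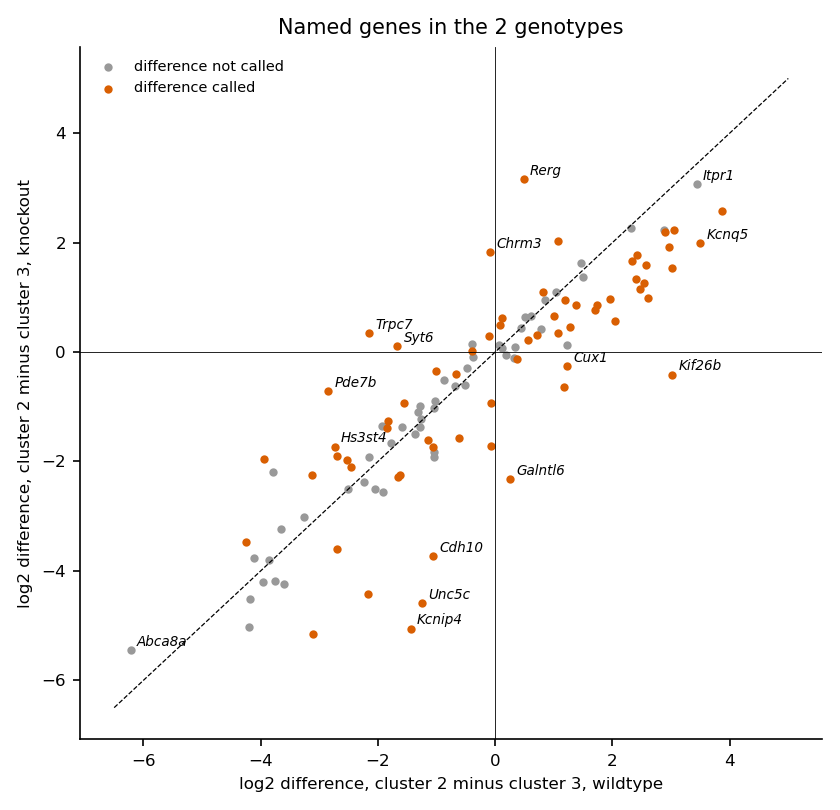
Log2 difference between cluster 2 and cluster 3 in wildtype (x axis) and in knockout (y axis) for the named genes tested in both, with orange points where the difference between genotypes was called and the dashed line marking equal contrasts. Kif26b, Kcnip4 and Unc5c lie below the line, Rerg, Chrm3, Trpc7 and Pde7b above it, and Abca8a and Itpr1 near it.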

How the data were processed

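UMI counts per gene and nucleus, deposited by the authors as sparse matrices, were made with kallisto and bustools on mm10, per the submitters' processing notes. Versions, and the handling of introns and strand, are not given in the sources used here. The deposited cell tables give each nucleus a cluster, a total UMI count that exceeded the matrix sum by 0.653% to 0.958% over the samples, a doublet score and a cell-cycle position. Doublet removal before deposit is not given in the sources used here, and a run without the highest 10% of scores per sample stood in for it. The count table holds 14166 genes. The targeted gene and some other genes are not reported here, so genotypes rest on the labels.

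Counts were summed per sample and cluster and tested with edgeR 4.0.16 (TMM, filterByExpr, quasi-likelihood, sample as a block, Benjamini-Hochberg adjustment) in R 4.3.3. SEs of log2 differences were derived from edgeR's test statistic, not from the spread of the paired differences. DESeq2 1.42.0 was an alternative. Clusters 2 and 3 of a sample deviated together (correlations of 0.316 to 0.543 for the same sample and at most 0.0836 otherwise). Positions came from GENCODE M21 (GRCm38) by Ensembl ID. Only 352 of 14162 deposited gene positions matched it, so deposited positions were not used. Copies were sought with blastn 2.17.0 (95% identity, 100 bases).

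Clusters, gene lists and tests were chosen with earlier results of these data known. Named genes were members of the subcerebral, corticothalamic and subplate lists averaging 10 UMIs or more in the wildtype libraries of whichever cluster was higher, the 12 largest called differences each way (50 UMIs, no overlap, predicted genes counted only), up to 3 per direction from other lists (20 UMIs) and 5 per direction for the difference between genotypes (20 UMIs). Members printed outside this rule were chosen after their values were seen. Scripts were tested on simulated data.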

Additional observations from a re-analysis of the deposited data

Results flagged for a closer look

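Single samples stood apart from the other 3 in the paired difference between the clusters. In the share of a sample's nuclei, wildtype replicate 1 had 5.26 percentage points more nuclei in cluster 2 than in cluster 3, while the other 3 samples had more in cluster 3. From CPM with 1 added, the log2 difference of Sema3e stood apart in replicate 2 at -1.52, Grin3a in replicate 2 at -1.64, Gria2 in replicate 4 at 0.65 and Celf4 in replicate 3 at -1.23 (others from -1.29 to -1.28). These 4 genes came from 118 checked, and chance marks about 1 group in 20.

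Genes of the subcerebral, corticothalamic and subplate lists, the largest differences and the genotype rule were covered here. Genes named only from other lists were left out. The contrast between clusters 2 and 3 differed between wildtype and knockout, by edgeR's test of the difference, for 33 of the genes covered. Values are knockout minus wildtype on the log2 scale. It was lower in knockout for Kcnip4 (-3.60), Kif26b (-3.42), Unc5c (-3.34), Cdh10 (-2.66), Galntl6 (-2.56), Tcerg1l (-2.43), Ntng1 (-1.64), Nrip1 (-1.61), Kcnq5 (-1.49), Boc (-1.47), Trmt9b (-1.28), Arhgap28 (-1.03), Diaph3 (-0.97), Crim1 (-0.85), Oma1 (-0.80) and Pde4b (-0.69). It was higher in knockout for Rerg (2.69), Trpc7 (2.52), Pde7b (2.15), Tll2 (1.98), Chrm3 (1.92), Syt6 (1.79), Hs3st4 (1.02), Nxph3 (0.80), Etl4 (0.79), Zfpm2 (0.58), Tmem178 (0.52), Grik3 (0.46), Bcl11b (0.43), Cdh13 (0.42), Sox5 (0.41), Tle4 (0.37) and Tbr1 (0.27). Among them are 7 of the 10 corticothalamic genes, all on the higher side. The 7 upper-layer genes called with a lower contrast in knockout are outside this list. Both genotypes were clustered together, and the part of cluster assignment in these values was not tested.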

How the results depend on the processing

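In wildtype, 3400 genes were called with the sample as a block, 2252 with no replicate block and 1668 with DESeq2. In knockout the counts were 3064, 1929 with no replicate block and 1507 with DESeq2. The difference between genotypes was called for 672 genes, and for 342 with DESeq2. The cause of the lower DESeq2 counts was not tested. Leaving out a sample gave 2563 to 2946 calls in wildtype, 2429 to 2744 in knockout and 495 to 676 for the difference, each from fewer samples. A replicate block by number gave 738 calls for the difference, but wildtype and knockout samples of the same number did not deviate together (correlations of 0.031 to 0.059), so the numbers were not taken as pairs. Other size factors, filters, thinning and the run without high doublet scores kept each count within 1.5 times. Of 122 named gene results, 108 kept their direction and side of the threshold under every alternative run, none reversed, and the calls lost most often were those of Dcx, Itm2a, Rarb, Sox5, Axin2, Crym and Nr3c2. The differences in nuclei properties kept their sign, and the share of nuclei ranged from -3.23 to -0.24 percentage points when a sample was left out. Low genes such as Abca8a are limited by depth, at under 1 CPM in cluster 2.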
